A study of Mus musculus with 15 samples.

Results

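The 36 genes described here encode the enzymes and transporters of glycolysis together with genes that cells switch on when oxygen is low. They were taken by gene symbol from the names printed on the array, and each is represented by its brightest probe, that is, the one with the highest mean processed signal. All 36 were found among the 31829 gene names on the array, and 35 passed the filter on dim probes, against 25149 gene names in all. Mxi1, which encodes a partner of Max that opposes Myc, was the exception: its probe was well above background on 1 of the 15 arrays, an untreated sh4 array, and it was not tested. The other 35 probes were well above background on every array on which they were measured.

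The RNA came from mouse embryonic stem (ES) cells that carried 1 of 2 short hairpin RNAs. The groups were sh4 with 1 µM retinoic acid for 72 hours (3 arrays), shCTR with the same treatment (4 arrays), untreated sh4 (4 arrays) and untreated shCTR (4 arrays). Retinoic acid, made from vitamin A, is a signal on which ES cells leave the pluripotent state, and shCTR is the control hairpin. The target of sh4 is not written in the sample labels, while the series title names Phf19, a protein that binds Polycomb repressive complexes. The labels name neither the ES line nor the way the hairpins were delivered beyond the word transfection, and they give the untreated cells no time in culture, so retinoic acid and 72 hours of culture cannot be told apart. Sample titles speak of biological replicates, yet separate cultures are nowhere stated, and the p-values below therefore reflect just the spread among these 15 samples. Precision is limited by how many arrays there are.

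Glycolysis splits glucose into pyruvate in the cytosol and yields ATP without oxygen. Pyruvate is then reduced to lactate by lactate dehydrogenase or enters the mitochondria, where pyruvate dehydrogenase, which the Pdk kinases switch off, makes acetyl-CoA from it. Prolyl hydroxylases of the Egln family use oxygen to mark hypoxia-inducible factor (HIF) for destruction. When oxygen is low HIF builds up, binds core sequences such as ACGTG and raises many of the genes below. ES cells are known for a high rate of glycolysis, which declines in many lineages as they differentiate.

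Levels are given as the log2 of the signal relative to the array's 75th percentile, which lay between 1529 and 1938 intensity units, and levels of different probes are not comparable with each other. Changes are log2 differences ± standard error from limma with Benjamini-Hochberg adjustment over all 25149 genes, and "rose" or "fell" means an adjusted p under 0.05. The share of probes well above background ran between 73.8% and 79.4%, and saturation was absent. Phf19 lay between −3.99 and −3.73 in sh4 with retinoic acid, −3.08 and −2.82 in shCTR with retinoic acid, −2.63 and −2.53 in untreated sh4 and −0.99 and −0.71 in untreated shCTR, and by the group means sh4 held 54.4% of the control level in retinoic acid and 30.2% in untreated cells. Markers of other cell types moved with both factors. Of the 10 ES cell markers 9 fell and 1 rose with retinoic acid in sh4, and 9 fell in shCTR. With sh4, 7 fell and 1 rose in retinoic acid, and 3 fell in untreated cells. None of the 10 was below background throughout a group. Their summed signal was 65.5 to 76.4 times the 75th percentile in sh4 with retinoic acid, 113 to 120 in shCTR with retinoic acid, 318 to 354 in untreated sh4 and 355 to 430 in untreated shCTR. The summed signal of 10 primitive and visceral endoderm markers was 8.70 to 9.89 in sh4 with retinoic acid, 45.0 to 53.9 in shCTR with retinoic acid, 0.663 to 0.799 in untreated sh4, where Afp and Ttr were below background, and 1.78 to 2.00 in untreated shCTR, where Ttr was. For 7 trophectoderm markers the same sum was 265 to 324, 292 to 317, 71.8 to 81.7 and 4.66 to 6.19 in that order of groups, with Elf5 below background in untreated shCTR. All 7 trophectoderm markers rose with sh4 in untreated cells, while 1 rose and 3 fell with sh4 in retinoic acid. With retinoic acid all 7 rose in shCTR, and 5 rose and 2 fell in sh4. All 10 endoderm markers fell with sh4 in retinoic acid, and 7 fell with sh4 in untreated cells. Fibroblast markers (8) summed to 7.80 to 8.11 in sh4 with retinoic acid. In shCTR with retinoic acid the sum was 5.81 to 7.54, with Fap below background. It was 0.873 to 0.979 in untreated sh4, where Fap and Postn were below background. In untreated shCTR it was 2.24 to 2.56, with Col3a1, Dcn, Fap, Lum and Postn below background. Of the 7 tested, 3 rose and 2 fell with sh4 in untreated cells, although the sum was lower in sh4. The 5 of 6 neural markers on the array summed to 5.06 to 6.27 in sh4 with retinoic acid, 4.20 to 4.84 in shCTR with retinoic acid, 2.90 to 3.73 in untreated sh4 and 4.56 to 6.10 in untreated shCTR. Of these neural markers 2 rose and 2 fell with sh4 in untreated cells, and 1 rose and 2 fell with retinoic acid in sh4. In each sum the brightest probes weigh most. The part of these cell types in the changes below was not tested. In bulk RNA, fewer cells of a type and less RNA per cell cannot be told apart.

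Most of the 35 genes were lower with retinoic acid. In sh4, 23 fell and 7 rose, which is 85.7% of the 35, while 58.6% of all genes tested changed (31.5% fell and 27.0% rose). In shCTR, 22 fell and 5 rose, which is 77.1%, while 62.4% of all genes changed (33.5% fell and 28.9% rose). The median change of the 35 was −0.46 in sh4 and −0.49 in shCTR, against −0.13 and −0.12 over all genes. This gap depended on the scaling. Quantile normalization gave −0.29 and −0.27, against −0.11 and −0.16. The authors' deposited values gave −0.30 and −0.22, against −0.06 and −0.08. Median centring gave −0.60 and −0.69, against −0.27 and −0.33, and normexp background correction −0.44 and −0.44, against −0.10 and −0.23. The same 21 genes fell in both hairpins, 5 rose in both and 0 moved in opposite directions. How many of all genes moved alike in both hairpins was not counted, so this is a description. At 2-fold or more, 9 fell and 4 rose in sh4, and 8 fell and 4 rose in shCTR. Of all 25149 genes, 2780 fell and 3653 rose that far in sh4 (25.6% together). In shCTR 2940 fell and 4061 rose that far (27.8% together). Centring each array on its median in place of its 75th percentile moved the median of all genes by −0.14 in sh4 and −0.20 in shCTR. With the authors' deposited values the split in shCTR was 16 lower and 8 higher. Under all 26 alternatives that keep the same threshold 15 of the falls and 4 of the rises in sh4, and 16 of the falls and 4 of the rises in shCTR, stayed past it in the same direction.

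**Figure D1:**
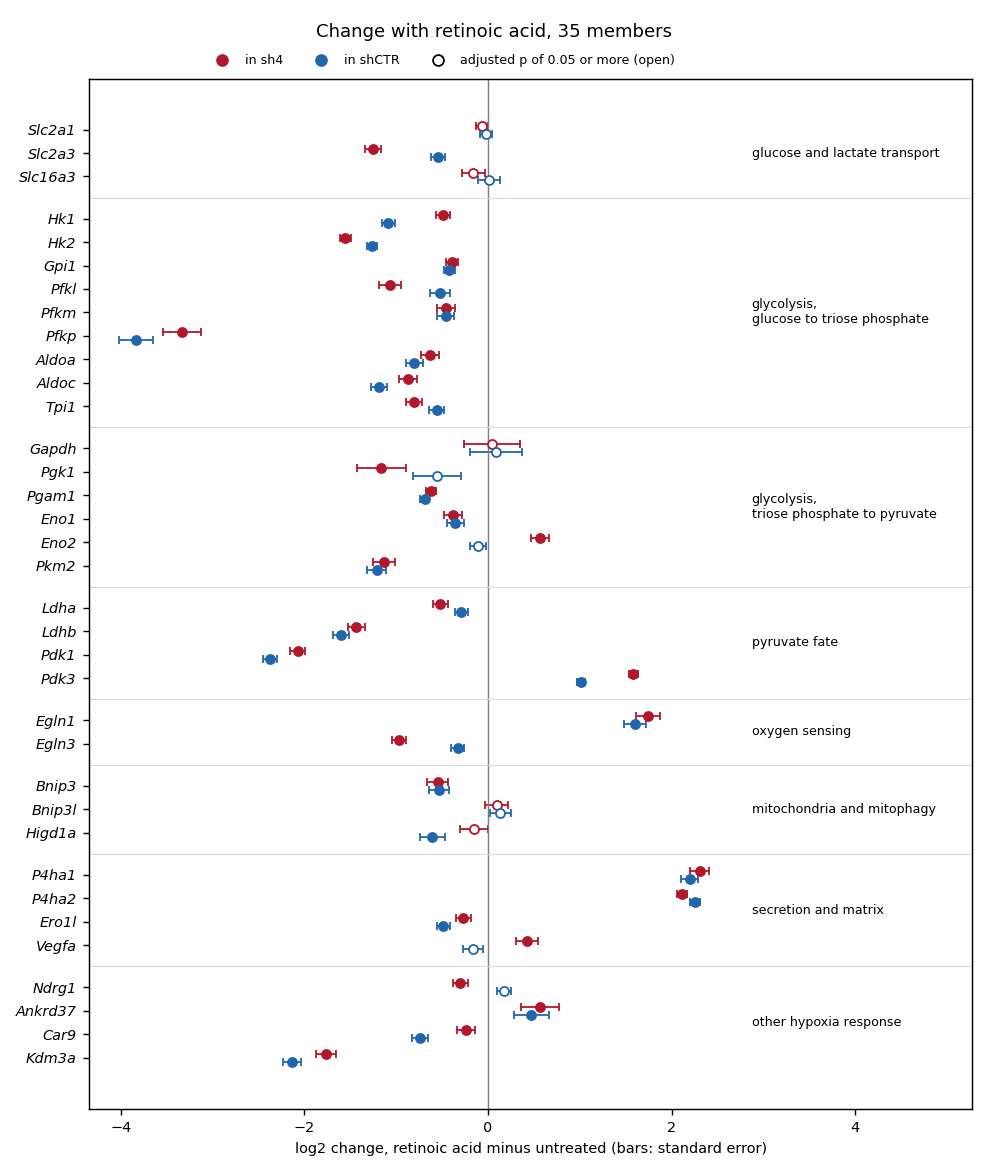
Change with retinoic acid for the 35 genes, grouped by role, as log2 difference (retinoic acid minus untreated) in sh4 and in shCTR, with standard errors as bars and open circles where the adjusted p was 0.05 or more. All points from glucose to triose phosphate lie left of 0, Pfkp farthest at −3.33 in sh4 and −3.83 in shCTR. P4ha1, P4ha2, Egln1 and Pdk3 lie at 1.01 or more. Under another scaling Gpi1, Eno1, Ldha, Slc2a1, Slc16a3, Gapdh, Bnip3l, Higd1a and Ndrg1 change sign in at least 1 hairpin.

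The sh4 hairpin moved fewer of them and by less. With retinoic acid, 7 fell and 3 rose with sh4, which is 28.6% of the 35, while 21.1% of all genes changed (10.3% fell and 10.8% rose). In untreated cells, 11 fell and 3 rose, which is 40.0%, while 28.4% of all genes changed (14.1% fell and 14.3% rose). No change reached 2-fold in either treatment, while 3.42% of all genes did so in retinoic acid and 6.56% in untreated cells. The median of the 35 was −0.08 with retinoic acid and −0.07 untreated, against 0.04 and 0.02 over all genes. Hk2, P4ha1 and P4ha2 fell and Pfkm rose in both treatments, and Slc2a3 went opposite ways. In retinoic acid alone 5 genes passed the threshold, and in untreated cells alone 9. Such patterns were not counted over all genes. The numbers of members called depend on the processing. With median centring 3 fell and 1 rose with sh4 in retinoic acid. Without sh4 72 RA replicate 1 or without shCTR 72 RA replicate 1, 1 rose there. Under all 26 alternatives Hk2, Ndrg1 and P4ha2 stayed lower and Pdk3 higher in retinoic acid. In untreated cells Aldoc, Car9, Eno2, Hk1, P4ha1, P4ha2, Pfkp and Vegfa stayed lower and Egln3 higher. The sh4 effect itself differed between treatments for 10 genes, 5 with a higher value in retinoic acid and 5 with a lower one. That is 28.6% of the 35, while 20.3% of all genes passed this test (10.2% higher and 10.1% lower). Hk1 and Pdk3, on the higher side, and Slc2a3, on the lower side, passed under all 25 alternatives, with median centring the split was 4 higher and 1 lower, and without sh4 72 RA replicate 3 the lower side had 3.

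**Figure D2:**
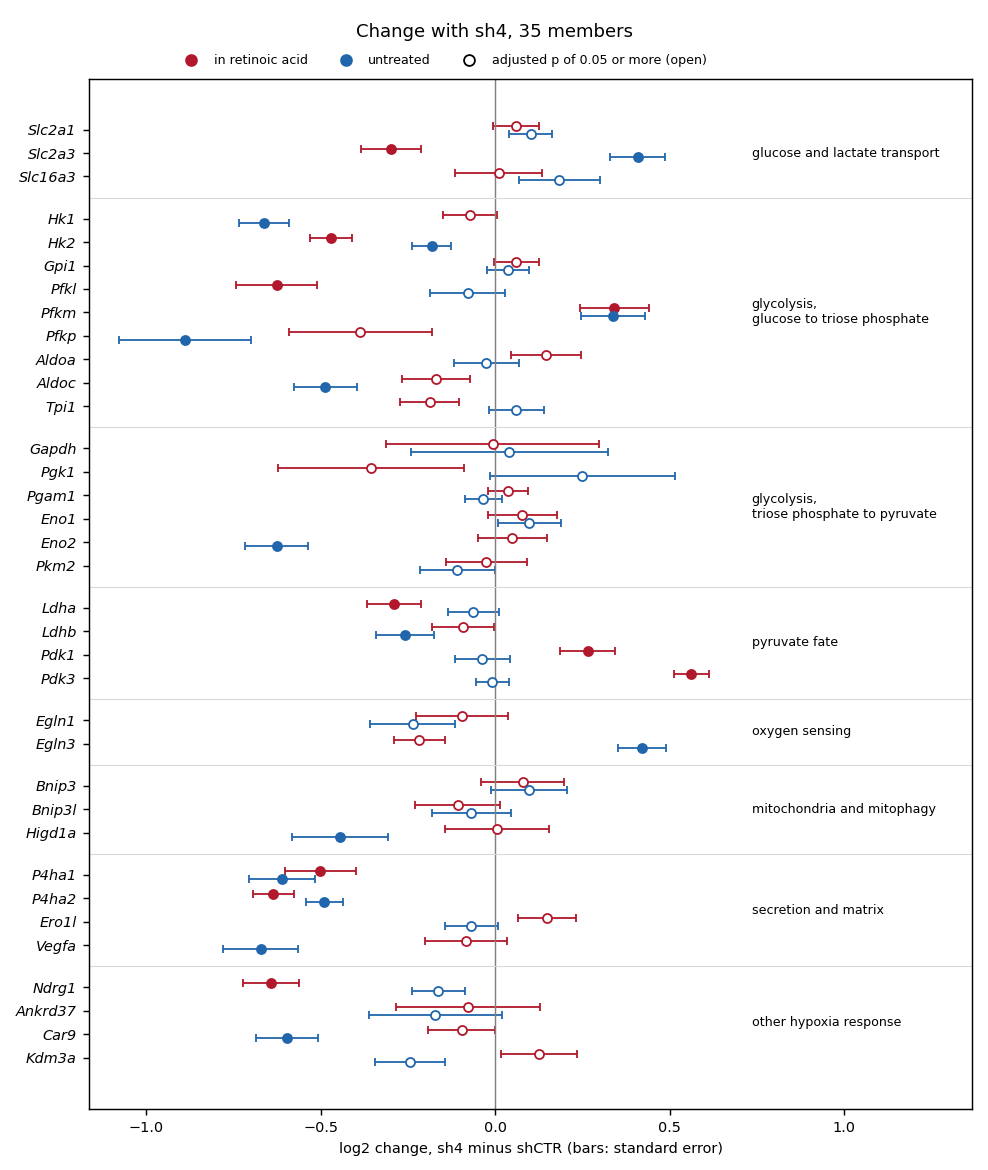
Change with sh4 for the 35 genes, grouped by role, as log2 difference (sh4 minus shCTR) in retinoic acid and in untreated cells, with standard errors as bars and open circles where the adjusted p was 0.05 or more. Every point lies between −0.89 (Pfkp, untreated) and 0.56 (Pdk3, retinoic acid), and the treatments stand apart for Slc2a3, Hk1, Eno2, Egln3 and Vegfa.

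Of the glucose and lactate carriers only Slc2a3 passed the threshold. Slc2a3 encodes a high-affinity glucose importer typical of embryonic cells and neurons, and its probe lies at chr6:122678075-122678134 on the minus strand of mm9. Slc2a3 read 4.99, 4.92 and 4.98 in sh4 with retinoic acid, 5.45, 5.25, 5.26 and 5.08 in shCTR with retinoic acid, 6.26, 6.21, 6.08 and 6.29 in untreated sh4 and 5.91, 5.74, 5.80 and 5.76 in untreated shCTR. No pair of groups overlapped: untreated sh4 was highest and sh4 with retinoic acid was lowest. Slc2a3 fell with retinoic acid by 1.25 ± 0.09 in sh4 (adjusted p = 2.3e-08) and by 0.54 ± 0.08 in shCTR (adjusted p = 3.6e-05). With quantile normalization the shCTR value was −0.16 (adjusted p = 0.118), which ends that call. With sh4 it changed by −0.30 ± 0.09 in retinoic acid (adjusted p = 0.024) and by 0.41 ± 0.08 untreated (adjusted p = 0.0014). The first of these was lost without sh4 72 RA replicate 1, 3 or 4 or shCTR 72 RA replicate 1 or 3 (adjusted p 0.0508 to 0.0811). It was also lost with quantile normalization (adjusted p = 0.0539), median centring (0.179), normexp background correction (0.18) and the authors' deposited values (0.143). The second was lost with the authors' deposited values (adjusted p = 0.0752) and normexp background correction (adjusted p = 0.0863). The difference between the sh4 effects was −0.71 ± 0.12 (adjusted p = 0.00071). Slc2a1, the widespread glucose importer, averaged 5.40 ± 0.12, 5.35 ± 0.03, 5.47 ± 0.07 and 5.37 ± 0.05 in sh4 with retinoic acid, shCTR with retinoic acid, sh4 and shCTR (SD, n = 3, 4, 4 and 4). Its retinoic acid values of −0.06 in sh4 and −0.02 in shCTR did not pass, and with quantile normalization they were 0.33 and 0.35, both past the threshold in the other direction. Slc16a3, which carries lactate out of cells, passed in none of the 5 comparisons, with values of −0.17 to 0.18. With the authors' deposited values it was at 0.26 with retinoic acid in shCTR and passed (adjusted p = 0.0378), and in sh4 its value of −0.16 was 0.078 there and 0.11 with quantile normalization, where it did not pass.

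All 9 genes of the steps that turn glucose into triose phosphate fell with retinoic acid in both hairpins, although Gpi1, at −0.40 in sh4 and −0.42 in shCTR, was at 0.024 and −0.02 with quantile normalization. With the authors' deposited values 7 of the 9 fell in sh4 and 6 in shCTR. Hexokinase phosphorylates glucose as it enters the cell, and both isozymes fell. Hk1 (probe at chr10:61731856-61731915, minus strand) read 2.53, 2.43 and 2.63 in sh4 with retinoic acid, 2.56, 2.48, 2.67 and 2.70 in shCTR with retinoic acid, 3.03, 2.97, 3.05 and 3.05 in untreated sh4 and 3.67, 3.66, 3.60 and 3.83 in untreated shCTR. The hairpins overlapped after retinoic acid and stood apart before it. Hk1 fell by 0.50 ± 0.08 in sh4 (adjusted p = 7.1e-05) and by 1.09 ± 0.07 in shCTR (adjusted p = 1.1e-08), and with sh4 it changed by −0.07 ± 0.08 in retinoic acid (adjusted p = 0.63) and −0.66 ± 0.07 untreated (adjusted p = 8.3e-06). The difference between the sh4 effects was 0.59 ± 0.10 (adjusted p = 0.0012).

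Hk2, the isozyme that HIF raises, had the opposite order of effects. Hk2 read 3.20, 3.14 and 3.18 in sh4 with retinoic acid, 3.74, 3.66, 3.55 and 3.63 in shCTR with retinoic acid, 4.83, 4.70, 4.70 and 4.68 in untreated sh4 and 4.93, 4.93, 4.90 and 4.89 in untreated shCTR. Here sh4 lay below shCTR in both treatments, by a wider margin in retinoic acid. Hk2 fell with retinoic acid by 1.55 ± 0.06 in sh4 (adjusted p = 7.2e-11) and by 1.27 ± 0.06 in shCTR (adjusted p = 1.7e-10), and with sh4 by 0.47 ± 0.06 in retinoic acid (adjusted p = 8.4e-05) and 0.18 ± 0.06 untreated (adjusted p = 0.025). The untreated value and the difference of −0.29 ± 0.08 (adjusted p = 0.024) did not pass with median centring (adjusted p = 0.171 and 0.429). Leaving out untreated sh4 replicate 2, 3 or 4 or shCTR replicate 1 or 2 also took the untreated value past 0.05, to at most 0.07, and leaving out sh4 72 RA replicate 3 or shCTR 72 RA replicate 1 did so for the difference (adjusted p 0.0513 to 0.0601).

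Phosphofructokinase commits sugar to glycolysis, and its 3 isozymes, named for liver, muscle and platelet, differed in size of response. Pfkp, the platelet form, had the largest fall of all 35 genes. Its probe has 2 parts within chr13:6581718-6583872 on the minus strand. Pfkp read −2.42, −2.37 and −2.30 in sh4 with retinoic acid, −2.67, −1.58, −1.73 and −1.91 in shCTR with retinoic acid, 1.15, 0.95, 0.83 and 0.94 in untreated sh4 and 2.10, 1.65, 1.80 and 1.88 in untreated shCTR. Every treated array lay more than 2 log2 units below every untreated one, and shCTR 72 RA replicate 1 lay below all other arrays. Pfkp fell with retinoic acid by 3.33 ± 0.20 in sh4 (adjusted p = 7.5e-09) and by 3.83 ± 0.19 in shCTR (adjusted p = 5.8e-10), which left 9.93% and 7.01% of the untreated level. With sh4 it was at −0.39 ± 0.20 in retinoic acid (adjusted p = 0.23) and fell by 0.89 ± 0.19 untreated (adjusted p = 0.0027). Without shCTR 72 RA replicate 1 the first value was −0.62 and passed (adjusted p = 0.00371). A second, dimmer Pfkp probe fell by 1.58 in shCTR (adjusted p = 0.00032) and was at −0.70 in sh4 (adjusted p = 0.074).

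Pfkl, the liver form (chr10:77450926-77450985, minus strand), read 2.38, 2.26 and 2.55 in sh4 with retinoic acid, 2.92, 2.82, 3.12 and 3.23 in shCTR with retinoic acid, 3.37, 3.33, 3.58 and 3.58 in untreated sh4 and 3.44, 3.43, 3.60 and 3.72 in untreated shCTR. Its hairpin groups overlapped in untreated cells and not in retinoic acid. Pfkl fell with retinoic acid by 1.07 ± 0.12 in sh4 (adjusted p = 2.5e-06) and 0.52 ± 0.11 in shCTR (adjusted p = 0.00075), and with sh4 it changed by −0.63 ± 0.12 in retinoic acid (adjusted p = 0.0016) and −0.08 ± 0.11 untreated (adjusted p = 0.71). The difference of −0.55 ± 0.16 (adjusted p = 0.027) was lost without any 1 of 8 arrays (adjusted p 0.0503 to 0.0736). These were sh4 72 RA replicates 1 and 3, shCTR 72 RA replicates 3 and 4, sh4 replicates 3 and 4 and shCTR replicates 1 and 2. Median centring also ended the difference (adjusted p = 0.311) and the sh4 call in retinoic acid (adjusted p = 0.0583). Without the 3 arrays that the scanner software rated for evaluation, the difference did not pass either (adjusted p = 0.156). Pfkm, the muscle form (chr15:97962713-97962772, plus strand), read 1.41, 1.25 and 1.46 in sh4 with retinoic acid, 0.89, 0.93, 1.11 and 1.20 in shCTR with retinoic acid, 1.74, 1.71, 1.98 and 1.89 in untreated sh4 and 1.37, 1.46, 1.52 and 1.63 in untreated shCTR. Here sh4 lay above shCTR in both treatments. Pfkm fell with retinoic acid by 0.46 in both hairpins (adjusted p = 0.0012 in sh4 and 0.00055 in shCTR) and rose with sh4 by 0.34 ± 0.10 in retinoic acid (adjusted p = 0.026) and 0.34 ± 0.09 untreated (adjusted p = 0.013). Median centring ended both sh4 calls (adjusted p = 0.225 and 0.255), and the call in retinoic acid was lost without sh4 72 RA replicate 1 or 4 or shCTR 72 RA replicate 1 or 2 (adjusted p 0.068 to 0.0995).

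The other genes of these steps fell with retinoic acid by 0.40 to 1.19. Aldoc, the brain form of the enzyme that splits fructose bisphosphate, averaged 1.42 ± 0.13, 1.59 ± 0.18, 2.29 ± 0.09 and 2.78 ± 0.07 in sh4 with retinoic acid, shCTR with retinoic acid, sh4 and shCTR (SD, n = 3, 4, 4 and 4). It fell with retinoic acid by 0.87 ± 0.10 in sh4 (adjusted p = 3.3e-06) and 1.19 ± 0.09 in shCTR (adjusted p = 5.2e-08), and with sh4 by 0.49 ± 0.09 in untreated cells (adjusted p = 0.00098). Aldoa, the muscle form, averaged 6.98 ± 0.09, 6.83 ± 0.19, 7.61 ± 0.10 and 7.64 ± 0.09 in the same order. It fell with retinoic acid by 0.63 ± 0.10 and 0.81 ± 0.09 (adjusted p = 8.9e-05 and 3.8e-06), and with the authors' deposited values neither passed (adjusted p = 0.064 and 0.0808). Tpi1, which interconverts the triose phosphates, fell by 0.81 ± 0.09 in sh4 and 0.56 ± 0.08 in shCTR, the second of which did not pass with quantile normalization (adjusted p = 0.0749). Gpi1, which turns glucose phosphate into fructose phosphate, passed in neither hairpin with that scaling or with the authors' deposited values.

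From triose phosphate to pyruvate, 4 of 6 genes fell and 1 rose with retinoic acid in sh4, and 3 of 6 fell in shCTR. Pkm2, the name the array gives to the gene now called Pkm, encodes muscle-type pyruvate kinases, among them the form of embryonic and dividing cells, and fell by 1.13 ± 0.12 in sh4 (adjusted p = 1.4e-06) and 1.22 ± 0.11 in shCTR (adjusted p = 2.5e-07). Its arrays ran between 4.34 and 4.71 in sh4 with retinoic acid and 4.41 and 4.68 in shCTR with retinoic acid, against 5.56 to 5.77 in untreated sh4 and 5.59 to 5.94 in untreated shCTR. Pgam1, a phosphoglycerate mutase, fell by 0.62 ± 0.06 and 0.69 ± 0.05 (adjusted p = 4.6e-07 and 5.5e-08). Pgk1, which makes the first ATP of the pathway and was not measured on shCTR replicate 2, read 5.26, 5.26 and 5.51 in sh4 with retinoic acid, 5.30, 5.50, 6.07 and 5.92 in shCTR with retinoic acid, 6.37, 6.77, 6.09 and 6.79 in untreated sh4 and 5.86, 6.02 and 6.89 in untreated shCTR. The shCTR groups overlapped and the sh4 groups did not. Pgk1 fell by 1.16 ± 0.27 in sh4 (adjusted p = 0.0022), while its value of −0.56 ± 0.27 in shCTR did not pass (adjusted p = 0.089); it did pass without shCTR replicate 1 (−0.75, adjusted p = 0.0412).

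Enolase makes phosphoenolpyruvate, and its isozymes differed. Eno1, the widespread form, averaged 6.44 ± 0.20, 6.37 ± 0.10, 6.82 ± 0.15 and 6.73 ± 0.02 in sh4 with retinoic acid, shCTR with retinoic acid, sh4 and shCTR (SD, n = 3, 4, 4 and 4). It fell by 0.38 ± 0.10 in sh4 and 0.36 ± 0.09 in shCTR (adjusted p = 0.0045 and 0.0035), while quantile normalization gave −0.05 in sh4 and a value of 0.0012 in shCTR. Eno2, the neuronal form (chr6:124710388-124710447, minus strand), read −2.01, −2.03 and −1.88 in sh4 with retinoic acid, −2.14, −2.20, −1.97 and −1.78 in shCTR with retinoic acid, −2.50, −2.62, −2.61 and −2.43 in untreated sh4 and −1.81, −1.90, −1.93 and −2.01 in untreated shCTR. Untreated sh4 stood below all 3 other groups, which overlapped each other. Eno2 rose with retinoic acid by 0.56 ± 0.10 in sh4 (adjusted p = 0.0002), where the authors' deposited values gave 0.30 (adjusted p = 0.0913), and was at −0.11 ± 0.09 in shCTR (adjusted p = 0.31). With sh4 it was at 0.05 ± 0.10 in retinoic acid (adjusted p = 0.83) and fell by 0.63 ± 0.09 untreated (adjusted p = 0.00013). The difference of 0.68 ± 0.13 passed (adjusted p = 0.0026), but not with the authors' deposited values (0.54, adjusted p = 0.0761).

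Gapdh, the dehydrogenase of triose phosphate and a common loading control, passed in none of the 5 comparisons on its brightest probe. That probe read 7.06, 7.09 and 6.79 in sh4 with retinoic acid, 6.93, 6.83, 7.02 and 7.16 in shCTR with retinoic acid, 7.20, 7.25, 6.21 and 7.10 in untreated sh4 and 6.02, 6.94, 7.22 and 7.42 in untreated shCTR. All groups overlapped, and 1 array of each untreated group lay about a log2 unit below the rest. Its retinoic acid values were 0.04 ± 0.30 in sh4 (adjusted p = 0.93) and 0.09 ± 0.28 in shCTR (adjusted p = 0.82). The sh4 value was −0.21 without untreated sh4 replicate 3 (adjusted p = 0.545). The shCTR value was −0.21 without untreated shCTR replicate 1 (adjusted p = 0.467). The 6 other Gapdh probes fell with retinoic acid by 0.79 to 1.11 in sh4 and by 0.65 to 1.37 in shCTR, and the mean over the probes fell by 0.80 and 0.79. The mouse genome holds many processed copies of Gapdh, and 1 of the probes is annotated on another chromosome, so signal from copies cannot be told apart from signal of the gene. The chosen probe and the next brightest overlap over 51 bases with 5 differences, A2G, A17C, C22T, C26T and G45T (chosen probe's base first, counted from 1 at its 5′ end). Their first 30 shared bases, at chr6:125111899-125111928 on the minus strand of mm9, are shown because 1 of these near-identical probes passed and the other did not. The difference between these probes was not tested. Capitals mark the bases that differ.
Gapdh chosen probe: gAgcctagggagccctAcctaCtctCttga
Gapdh next brightest probe: gGgcctagggagccctCcctaTtctTttga
The next brightest probe, with those substitutions, fell by 0.82 in sh4 (adjusted p = 0.0082) and by 0.65 in shCTR (adjusted p = 0.019). Ldha showed a milder form of the same spread: its brightest probe fell by 0.52 in sh4 and 0.29 in shCTR, and its 2 dimmer probes by 1.08 and 1.12 in sh4 and by 0.96 in shCTR.

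**Figure D3:**
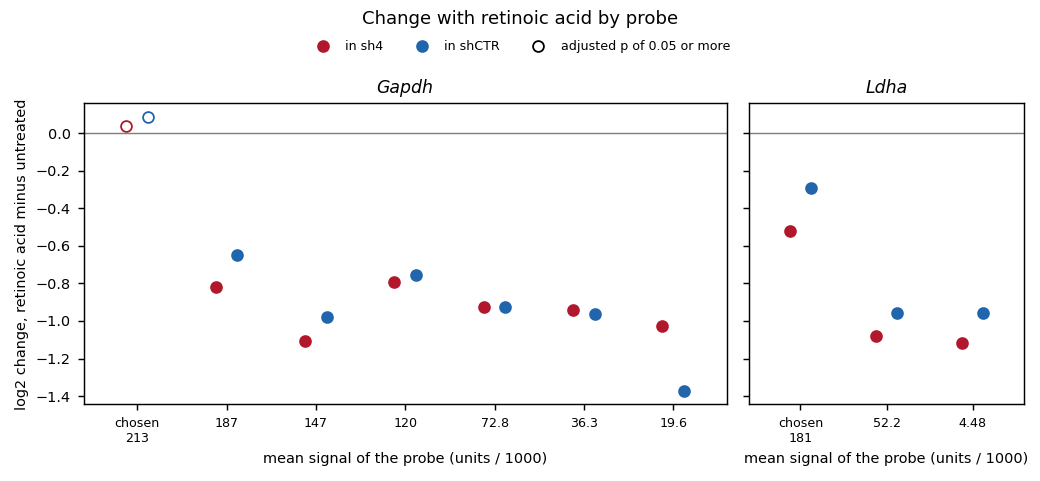
Change with retinoic acid (log2, retinoic acid minus untreated) for each probe of Gapdh and Ldha, ordered along the horizontal axis from the brightest to the dimmest by mean signal, in sh4 and in shCTR; open circles have an adjusted p of 0.05 or more. The brightest Gapdh probe lies at 0.04 and 0.09 while the other 6 lie between −0.65 and −1.37, and the brightest Ldha probe lies above its 2 dimmer ones.

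At the fate of pyruvate, the lactate dehydrogenases and Pdk1 fell with retinoic acid and Pdk3 rose. Ldha, the muscle-type subunit that favours lactate, averaged 6.37 ± 0.06, 6.67 ± 0.06, 6.89 ± 0.10 and 6.96 ± 0.12 in sh4 with retinoic acid, shCTR with retinoic acid, sh4 and shCTR (SD, n = 3, 4, 4 and 4). On its brightest probe it fell by 0.52 ± 0.08 in sh4 and 0.29 ± 0.07 in shCTR (adjusted p = 5.6e-05 and 0.0029), and by 0.29 ± 0.08 with sh4 in retinoic acid (adjusted p = 0.017). Quantile normalization gave −0.18 in sh4 and 0.01 in shCTR for retinoic acid, and the sh4 effect did not pass with normexp background correction (adjusted p = 0.167) or without sh4 72 RA replicate 3 (adjusted p = 0.0685). Ldhb, the heart-type subunit, read 4.15, 4.17 and 4.19 in sh4 with retinoic acid, 4.17, 4.19, 4.33 and 4.35 in shCTR with retinoic acid, 5.75, 5.63, 5.51 and 5.52 in untreated sh4 and 5.98, 5.89, 5.64 and 5.93 in untreated shCTR. Treated and untreated arrays were separated by more than a log2 unit. Ldhb fell by 1.43 ± 0.09 in sh4 (adjusted p = 8.6e-09) and 1.60 ± 0.08 in shCTR (adjusted p = 9.3e-10). Its fall of 0.26 ± 0.08 with sh4 in untreated cells (adjusted p = 0.031), where the arrays overlapped, was lost without sh4 replicate 2, 3 or 4 or shCTR replicate 1, 2 or 4 (adjusted p 0.0507 to 0.0883).

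The pyruvate dehydrogenase kinases Pdk1 and Pdk3 went opposite ways. Pdk1, a well-known HIF target (chr2:71739688-71739747, plus strand), was not measured on sh4 replicate 1. Pdk1 read −0.67, −0.70 and −0.87 in sh4 with retinoic acid, −0.997, −0.909, −1.088 and −1.055 in shCTR with retinoic acid, 1.40, 1.22 and 1.36 in untreated sh4 and 1.23, 1.43, 1.40 and 1.41 in untreated shCTR. All treated arrays were below 0 and all untreated ones above it. Pdk1 fell with retinoic acid by 2.07 ± 0.08 in sh4 (adjusted p = 3.9e-10) and 2.38 ± 0.07 in shCTR (adjusted p = 2e-11), which left 23.7% and 19.2% of the untreated level. Its rise of 0.27 ± 0.08 with sh4 in retinoic acid (adjusted p = 0.032) was lost without sh4 72 RA replicate 1 or 3 or shCTR 72 RA replicate 1, 3 or 4 (adjusted p 0.0603 to 0.13). Pdk3, another isoform of that kinase (chrX:91010227-91010286, minus strand), read 1.15, 1.15 and 1.16 in sh4 with retinoic acid, 0.57, 0.65, 0.55 and 0.60 in shCTR with retinoic acid, −0.40, −0.47, −0.37 and −0.47 in untreated sh4 and −0.44, −0.40, −0.43 and −0.41 in untreated shCTR. The hairpins coincided before retinoic acid and were fully apart after it. Pdk3 rose with retinoic acid by 1.58 ± 0.05 in sh4 (adjusted p = 1.3e-11) and 1.01 ± 0.05 in shCTR (adjusted p = 3.1e-10). With sh4 it rose by 0.56 ± 0.05 in retinoic acid (adjusted p = 4.2e-06) and was at −0.01 ± 0.05 untreated (adjusted p = 0.95). The difference was 0.57 ± 0.07 (adjusted p = 5.9e-05), and within the 3 slides that held all 4 groups it was 0.54, 0.57 and 0.55.

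Among genes of pyruvate entry to the mitochondria that are outside the 36, the list of 13 had 11 tested genes, of which 7 fell and 1 rose in sh4 and 8 fell and 2 rose in shCTR with retinoic acid. Their median was −0.86 in sh4 and −0.75 in shCTR. Pdk4, a kinase of fasting muscle, fell by 1.32 in sh4 and 1.57 in shCTR. Pdhb, a subunit of pyruvate dehydrogenase itself, fell by 1.15 and 1.29. Pdk2 rose by 2.08 ± 0.25 in shCTR (adjusted p = 5e-06) and was 2.45 ± 0.27 lower in sh4 than in shCTR with retinoic acid (adjusted p = 2.3e-05). The others past 2-fold were Brp44l, Pdhx and Pdp2, which fell in shCTR, and Pdp1 and Pdp2, which fell, and Brp44, which rose, in sh4.

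**Figure D4:**
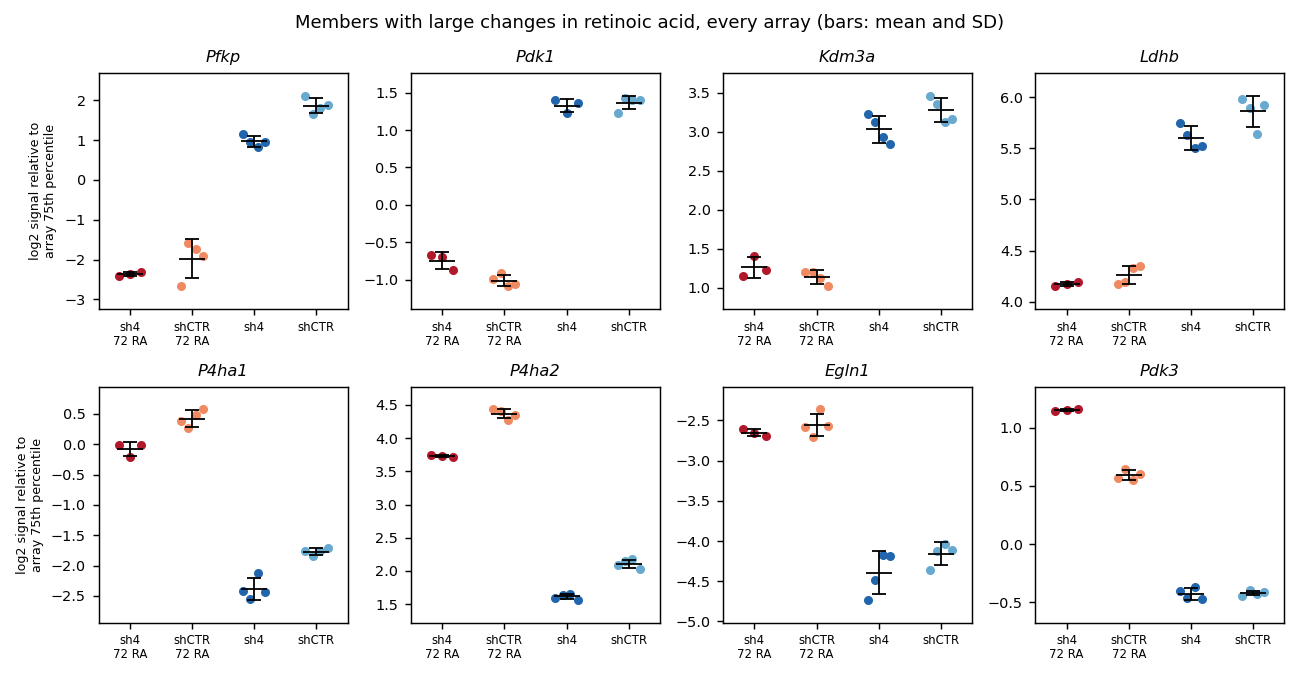
Log2 level relative to the array's 75th percentile on every array for 8 genes, with group means and SD as bars; groups run from sh4 with retinoic acid (3 arrays) through shCTR with retinoic acid and sh4 to shCTR (4 each, with Pdk1 missing on 1 sh4 array). Treated and untreated arrays separate in every panel, downward in Pfkp, Pdk1, Kdm3a and Ldhb and upward in P4ha1, P4ha2, Egln1 and Pdk3.

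The oxygen-sensing prolyl hydroxylases also split. Egln1, the main one that marks HIF, has its probe placed by the files at chr8:127432487-127432499 on the minus strand, which is part of the probe's length. Egln1 read −2.60, −2.65 and −2.70 in sh4 with retinoic acid, −2.58, −2.70, −2.36 and −2.57 in shCTR with retinoic acid, −4.73, −4.48, −4.17 and −4.19 in untreated sh4 and −4.36, −4.12, −4.04 and −4.11 in untreated shCTR. The hairpins overlapped in both treatments and the treatments did not. Egln1 rose with retinoic acid by 1.74 ± 0.13 in sh4 (adjusted p = 6.3e-08) and 1.60 ± 0.12 in shCTR (adjusted p = 5.3e-08), about a 3.35-fold and a 3.03-fold rise. Egln3, a hydroxylase that HIF itself raises (chr12:55280953-55281012, minus strand), read −2.19, −1.94 and −1.90 in sh4 with retinoic acid, −1.74, −1.83, −1.86 and −1.74 in shCTR with retinoic acid, −1.005, −1.104, −1.005 and −1.042 in untreated sh4 and −1.49, −1.52, −1.44 and −1.39 in untreated shCTR. Untreated sh4 was highest and sh4 with retinoic acid lowest, with no overlap between groups. Egln3 fell with retinoic acid by 0.97 ± 0.07 in sh4 (adjusted p = 7e-08) and 0.33 ± 0.07 in shCTR (adjusted p = 0.00076). With sh4 it was at −0.22 ± 0.07 in retinoic acid (adjusted p = 0.054) and rose by 0.42 ± 0.07 untreated (adjusted p = 0.00035). Without sh4 72 RA replicate 4 the first of these passed (−0.27, adjusted p = 0.0362). The difference of −0.64 ± 0.10 (adjusted p = 0.00051) was at −0.58 with median centring and did not pass there (adjusted p = 0.0655).

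Of HIF itself, Hif1a passed in none of the comparisons (−0.45 to 0.08). Epas1, the HIF subunit of endothelium, fell with sh4 by 1.70 ± 0.07 in retinoic acid (adjusted p = 5.2e-09) and by 1.00 ± 0.07 untreated (adjusted p = 1.1e-07), a larger fall than any of the 35 genes showed with sh4. Of 6 endothelial and blood markers, 3 fell and 0 rose with sh4 in retinoic acid (median −0.99), and 2 fell and 1 rose untreated (median −0.02). With retinoic acid, 2 fell and 2 rose in sh4 (median −0.17), and 1 fell and 3 rose in shCTR (median 1.01). Their summed signal was 1.06 to 1.86 in sh4 with retinoic acid and 2.24 to 2.81 in shCTR with retinoic acid. In untreated cells it was 1.20 to 2.07 in sh4, where Cdh5 was below background, and 1.30 to 1.60 in shCTR. The part of these markers in the Epas1 values was not tested. With retinoic acid Epas1 fell by 0.54 ± 0.07 in sh4 and was at 0.16 ± 0.07 in shCTR (adjusted p = 0.055). Arnt, the partner of both, fell in shCTR with retinoic acid by 0.48 ± 0.15 (adjusted p = 0.012), and its relative Arnt2 rose by 1.31 in sh4 and 1.06 in shCTR. Vhl, which destroys marked HIF, rose with retinoic acid by 1.07 ± 0.10 in sh4 (adjusted p = 6.7e-07) and 0.56 ± 0.09 in shCTR (adjusted p = 0.00013). Of the 9 oxygen-sensing genes listed beside the 36, 3 rose and 3 fell in sh4 and 2 rose and 2 fell in shCTR.

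Bnip3 and Bnip3l mark mitochondria for removal when oxygen is low. Bnip3 averaged 3.48 ± 0.18, 3.40 ± 0.14, 4.03 ± 0.17 and 3.93 ± 0.13 in sh4 with retinoic acid, shCTR with retinoic acid, sh4 and shCTR (SD, n = 3, 4, 4 and 4). It fell by 0.55 ± 0.12 in sh4 and 0.53 ± 0.11 in shCTR (adjusted p = 0.0012 and 0.00076), the first of which did not pass with quantile normalization (−0.29, adjusted p = 0.061). Bnip3l averaged 2.67 ± 0.35, 2.78 ± 0.04, 2.58 ± 0.06 and 2.65 ± 0.10 in that order and did not pass, at 0.09 in sh4 and 0.13 in shCTR. Without sh4 72 RA replicate 1, however, it was at 0.29 in sh4 and passed (adjusted p = 0.00484). The mean over its probes passed in both hairpins, at 0.31 in sh4 and 0.19 in shCTR. The authors' deposited values gave 0.34 in sh4 (adjusted p = 0.0403) and 0.37 in shCTR (adjusted p = 0.017). In shCTR it also passed with quantile normalization (0.35, adjusted p = 0.0213). Median centring gave −0.05 in sh4 and −0.07 in shCTR, and neither passed. Higd1a, a small protein of the respiratory chain, fell by 0.61 ± 0.14 with retinoic acid in shCTR (adjusted p = 0.0017). It was at −0.16 in sh4 (adjusted p = 0.41), where it passed without untreated sh4 replicate 1 (−0.34, adjusted p = 0.00136). Its fall of 0.45 with sh4 in untreated cells (adjusted p = 0.028) was lost without shCTR replicate 2, 3 or 4 (adjusted p 0.0591 to 0.0709).

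Genes of secretion and matrix held the largest rises. P4ha1 and P4ha2 encode the catalytic subunits of collagen prolyl hydroxylase, an enzyme of the secretory pathway that uses oxygen. P4ha1 (chr10:58835625-58835684, plus strand) read −0.01, −0.20 and −0.02 in sh4 with retinoic acid, 0.38, 0.27, 0.48 and 0.58 in shCTR with retinoic acid, −2.42, −2.56, −2.12 and −2.43 in untreated sh4 and −1.75, −1.85, −1.77 and −1.71 in untreated shCTR. The 4 groups did not overlap, and sh4 lay below shCTR in each treatment. P4ha1 rose with retinoic acid by 2.30 ± 0.10 in sh4 (adjusted p = 2.7e-10) and 2.20 ± 0.09 in shCTR (adjusted p = 1.5e-10), and fell with sh4 by 0.50 ± 0.10 in retinoic acid (adjusted p = 0.003) and 0.61 ± 0.09 untreated (adjusted p = 0.00023). Median centring ended the call in retinoic acid (adjusted p = 0.102). P4ha2 (chr11:53945032-53945091, plus strand) read 3.74, 3.73 and 3.71 in sh4 with retinoic acid, 4.43, 4.40, 4.28 and 4.35 in shCTR with retinoic acid, 1.60, 1.64, 1.66 and 1.57 in untreated sh4 and 2.08, 2.14, 2.17 and 2.02 in untreated shCTR. The order of groups was that of P4ha1, again without overlap. P4ha2 rose by 2.11 ± 0.06 in sh4 (adjusted p = 3.3e-12) and 2.26 ± 0.05 in shCTR (adjusted p = 4.9e-13), and fell with sh4 by 0.64 ± 0.06 in retinoic acid (adjusted p = 4.9e-06) and 0.49 ± 0.05 untreated (adjusted p = 1.1e-05). The difference between the sh4 effects passed for neither gene (0.11 ± 0.14 and −0.15 ± 0.08, adjusted p = 0.72 and 0.26).

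Vegfa, the growth factor of blood vessels (chr17:46154387-46154446, minus strand), read −0.68, −0.80 and −0.58 in sh4 with retinoic acid, −0.69, −0.61, −0.53 and −0.58 in shCTR with retinoic acid, −1.17, −1.39, −1.10 and −0.80 in untreated sh4 and −0.45, −0.61, −0.35 and −0.35 in untreated shCTR. Untreated sh4 was the lowest group and touched only sh4 with retinoic acid. Vegfa rose with retinoic acid by 0.43 ± 0.12 in sh4 (adjusted p = 0.0064), with overlapping arrays, and was at −0.16 ± 0.11 in shCTR (adjusted p = 0.22). A second probe rose in both, by 0.90 and 0.55. With sh4 it was at −0.08 ± 0.12 in retinoic acid (adjusted p = 0.74) and fell by 0.67 ± 0.11 untreated (adjusted p = 0.00032). The difference of 0.59 ± 0.16 (adjusted p = 0.019) was lost without sh4 72 RA replicate 4 (adjusted p = 0.0524) and with median centring, which also ended the rise in sh4 (adjusted p = 0.139 and 0.216). Ero1l, now called Ero1a, which oxidises disulphide bonds for secretion, fell by 0.27 ± 0.08 in sh4 and 0.49 ± 0.08 in shCTR. The sh4 value (adjusted p = 0.012) was lost without sh4 72 RA replicate 3 or 4 (adjusted p 0.0532 to 0.0579).

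The remaining hypoxia genes had no common direction. Kdm3a, a histone demethylase raised by HIF (chr6:71539112-71539171, minus strand), read 1.15, 1.41 and 1.23 in sh4 with retinoic acid, 1.21, 1.21, 1.12 and 1.02 in shCTR with retinoic acid, 3.23, 3.12, 2.93 and 2.85 in untreated sh4 and 3.45, 3.35, 3.13 and 3.17 in untreated shCTR. The hairpins overlapped and the treatments were far apart. Kdm3a fell by 1.77 ± 0.11 in sh4 (adjusted p = 8.3e-09) and 2.14 ± 0.10 in shCTR (adjusted p = 3.8e-10). With sh4 in untreated cells it was at −0.24 (adjusted p = 0.096) and passed without sh4 replicate 1 (−0.31, adjusted p = 0.0424) and with slide as a block (adjusted p = 0.0214); the 4 slides gave −0.23, −0.23, −0.20 and −0.32. Ndrg1, a stress and differentiation gene (chr15:66761057-66761116, minus strand), read 0.32, 0.16 and 0.37 in sh4 with retinoic acid, 0.95, 0.79, 0.94 and 1.03 in shCTR with retinoic acid, 0.65, 0.56, 0.71 and 0.43 in untreated sh4 and 0.75, 0.73, 0.80 and 0.73 in untreated shCTR. Treated sh4 was the lowest group and overlapped with none. Ndrg1 fell with sh4 by 0.64 ± 0.08 in retinoic acid (adjusted p = 7.9e-05) and was at −0.16 ± 0.08 untreated (adjusted p = 0.14). With retinoic acid it fell by 0.30 ± 0.08 in sh4 (adjusted p = 0.0054; 0.0758 with normexp background correction) and was at 0.18 ± 0.08 in shCTR (adjusted p = 0.058), where it passed without sh4 72 RA replicate 3, shCTR 72 RA replicate 2 or sh4 replicate 4 (adjusted p 0.0248 to 0.0499). The difference of −0.48 ± 0.11 (adjusted p = 0.0074) was lost with median centring (adjusted p = 0.228).

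Car9, a carbonic anhydrase of the cell surface and a classic hypoxia marker (chr4:43526518-43526577, plus strand), read −3.25, −3.37 and −3.19 in sh4 with retinoic acid, −3.17, −3.29, −3.08 and −3.17 in shCTR with retinoic acid, −3.25, −3.02, −2.89 and −2.98 in untreated sh4 and −2.59, −2.39, −2.47 and −2.30 in untreated shCTR. Untreated shCTR stood above the other groups, which overlapped. Car9 fell by 0.74 ± 0.09 with retinoic acid in shCTR (adjusted p = 5.5e-06) and by 0.60 ± 0.09 with sh4 in untreated cells (adjusted p = 0.00016). Its fall of 0.24 ± 0.10 with retinoic acid in sh4 (adjusted p = 0.046) was lost without 10 of the 15 arrays taken singly (adjusted p 0.0519 to 0.16) and was 0.00015 within slide 1. The sh4 effect was at −0.10 ± 0.10 in retinoic acid, and the difference of 0.50 ± 0.13 (adjusted p = 0.015) did not pass with quantile normalization (adjusted p = 0.0662). Ankrd37, an ankyrin repeat gene raised by HIF, rose by 0.57 ± 0.21 in sh4 and 0.47 ± 0.19 in shCTR (adjusted p = 0.03 and 0.046). The first call was lost without sh4 72 RA replicate 3 or 4 or sh4 replicate 3 (adjusted p 0.0775 to 0.134), the second without any 1 of 10 arrays (adjusted p 0.0531 to 0.14), and neither passed with median centring.

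**Figure D5:**
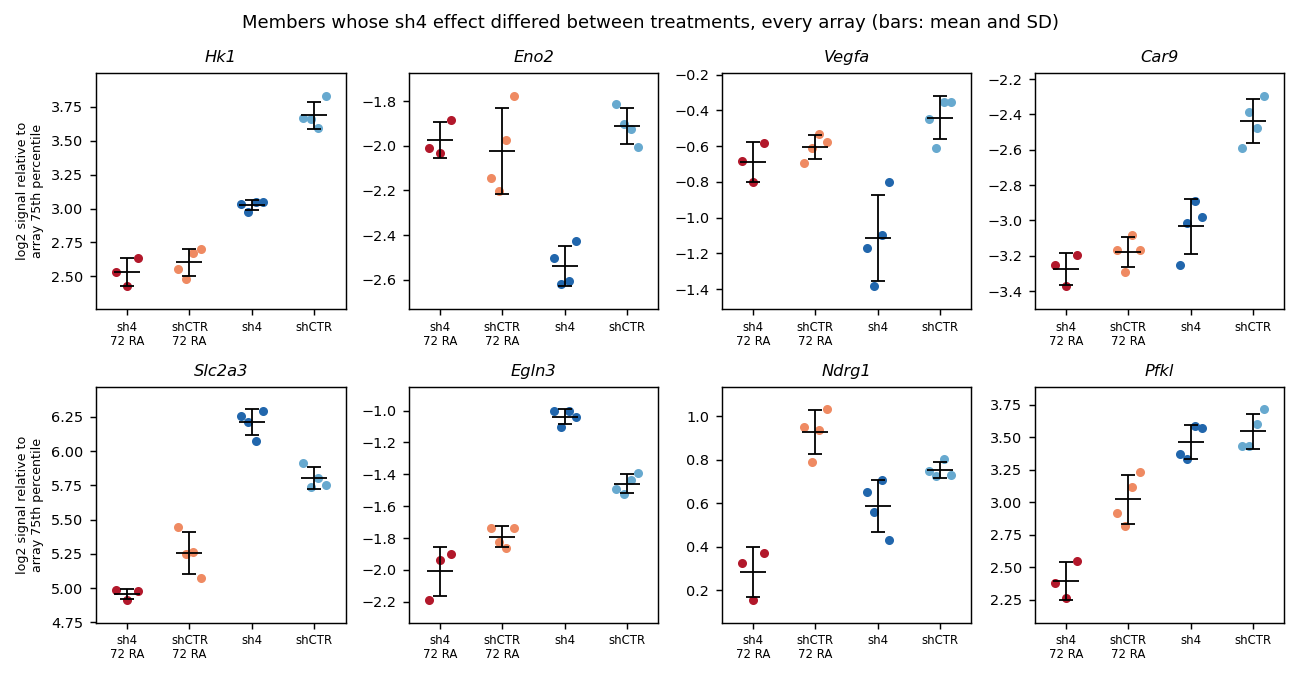
Log2 level relative to the array's 75th percentile on every array for 8 genes whose sh4 effect differed between treatments, with group means and SD as bars; groups run from sh4 with retinoic acid (3 arrays) through shCTR with retinoic acid and sh4 to shCTR (4 each). In the upper row (Hk1, Eno2, Vegfa and Car9) untreated sh4 lies below untreated shCTR and the treated groups overlap, and in the lower row sh4 with retinoic acid is the lowest group.

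Promoter sequence was set beside these changes for 7 of the genes that moved with retinoic acid. RefSeq start sites on GRCm38.p6 matched 33 of the 36 genes, while Slc2a3, Bnip3l and Ndrg1 had no entry. ACGTG, a form of the HIF core, was searched on both strands in windows of 250 bases before to 50 after a start site. No other form of the core was searched. ACGTG was present for 24 of the 33 genes (72.7%), against 21.8% of 27025 genes. By window it was in 27 of 50 (54.0%), against 19.6% of 32851 windows. The E-box CACGTG, which contains ACGTG, was in 3 of the 50 windows and 7.15% of all. Many of these genes are listed here because HIF is known to act on them, so this share is a description. The 120 bases before the start site are printed for the 4 genes that rose at least 2-fold with retinoic acid in both hairpins. Each has 1 match, in capitals, as ACGTG or as CACGT on the printed strand. The same stretch is printed for the 3 that fell most, which hold neither ACGTG nor CACGT there. GCGTG, another form of the core, can be read in the printed stretch of each of these 3, and in those of P4ha2 and Pdk3. It was not counted over all genes. These 7 are examples and not a contrast of risers with fallers: of the genes with an entry, ACGTG was in the windows of 12 of the 20 that fell in both hairpins (60.0%), Hk1, Hk2 and Pkm2 among them, and of 5 of the 5 that rose in both.
P4ha1, chr10:59323176-59323295, plus strand: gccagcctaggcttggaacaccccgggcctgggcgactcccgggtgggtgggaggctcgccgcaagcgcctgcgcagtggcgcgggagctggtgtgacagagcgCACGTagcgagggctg
P4ha2, chr11:54100804-54100923, plus strand: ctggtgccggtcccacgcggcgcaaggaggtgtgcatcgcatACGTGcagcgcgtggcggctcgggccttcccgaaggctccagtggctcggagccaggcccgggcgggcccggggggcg
Egln1, chr8:124949255-124949374, minus strand: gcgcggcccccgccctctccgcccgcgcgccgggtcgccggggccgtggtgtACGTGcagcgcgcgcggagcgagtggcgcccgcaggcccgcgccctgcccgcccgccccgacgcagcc
Pdk3, chrX:93832151-93832270, minus strand: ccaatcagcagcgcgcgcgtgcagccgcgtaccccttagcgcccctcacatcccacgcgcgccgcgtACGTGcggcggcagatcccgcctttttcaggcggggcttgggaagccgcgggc
Pfkp, chr13:6648772-6648891, minus strand: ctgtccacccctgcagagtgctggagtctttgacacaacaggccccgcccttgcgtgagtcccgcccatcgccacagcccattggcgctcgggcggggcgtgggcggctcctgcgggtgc
Pdk1, chr2:71873104-71873223, plus strand: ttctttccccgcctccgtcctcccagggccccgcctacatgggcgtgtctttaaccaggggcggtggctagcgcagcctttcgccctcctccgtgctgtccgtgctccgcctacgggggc
Kdm3a, chr6:71632918-71633037, minus strand: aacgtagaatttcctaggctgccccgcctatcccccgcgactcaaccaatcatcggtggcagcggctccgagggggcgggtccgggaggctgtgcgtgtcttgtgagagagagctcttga
A match is a description of these letters and shows neither binding nor its absence.

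Related genes outside the 36 did not share one direction. Of 23 other glycolysis isozymes and regulators, 21 were tested; with retinoic acid 8 rose and 5 fell in sh4, and 8 rose and 4 fell in shCTR, with medians of 0.09 and 0.05. Hkdc1, a further hexokinase-like gene, rose by 4.40 ± 0.10 in sh4 (adjusted p = 5.2e-13) and 5.57 ± 0.09 in shCTR (adjusted p = 1.6e-14), while Hk1 and Hk2 fell. It was lower with sh4 by 2.90 ± 0.10 in retinoic acid and 1.72 ± 0.09 untreated. Slc2a10, a glucose transporter, rose by 2.63 and 3.50 and Pfkfb4, which sets the activator of phosphofructokinase, by 1.86 and 1.25 (sh4 before shCTR in each case). Ldhd, a mitochondrial lactate dehydrogenase, fell by 3.19 and 2.72, and Slc2a8 by 1.39 and 1.81. Ldhc and Pfkfb2 also fell past 2-fold in sh4, and with sh4 in retinoic acid Eno3 rose and Ldhc and Slc2a10 fell past it. Of 7 pentose phosphate genes, 4 fell with retinoic acid in sh4, and 3 fell and 2 rose in shCTR; G6pdx fell by 1.34 in sh4.

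Of 7 gluconeogenesis genes, 3 fell and 3 rose in each hairpin. Fbp2, a muscle fructose bisphosphatase, rose by 1.57 in sh4 and 2.15 in shCTR, and was lower with sh4 by 2.33 in retinoic acid and 1.75 untreated. Pck1, the cytosolic carboxykinase, rose by 2.59 in shCTR and was 2.29 lower with sh4 in retinoic acid. Pcx, Pck2 and Fbp1 fell past 2-fold in both hairpins. Of 28 other hypoxia genes, 26 were tested; 12 rose and 10 fell in sh4, and 13 rose and 9 fell in shCTR, with medians of 0.19 and 0.43. Errfi1, Adm, Car12, Anxa2, Loxl2 and Gbe1 rose past 2-fold in both hairpins, and Plod2 did so in shCTR. Stc2, Angptl4, Kdm4c, Tfrc and Slc6a8 fell past 2-fold in both, and Gys1 in shCTR. With sh4 in retinoic acid, Car12, another surface carbonic anhydrase, fell by 1.26 and Plod2, a collagen lysyl hydroxylase, by 1.22, while Errfi1 rose by 1.01 with sh4 in untreated cells. The sh4 effects of Hkdc1, Pdk2, Pck1, Car12, Plod2 and Bhlhe40 differed between treatments by −1.07 to −1.81.

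Signs were compared slide by slide, since the arrays sat on 4 slides, 3 of which held all groups. The genes were called on these same arrays, so agreeing signs and groups without overlap are a description and no separate test. Every slide that held both groups gave the same sign for all 30 called genes with retinoic acid in sh4 but Car9, and for all 27 in shCTR, all 10 with sh4 in retinoic acid, all 14 with sh4 untreated and all 10 differences. Among the called genes the groups' arrays overlapped for Ankrd37, Car9, Ero1l and Vegfa with retinoic acid in sh4 and for Ldhb with sh4 untreated, and for no other. With slide as a block all 91 calls stayed, and 5 values joined them: Kdm3a with sh4 untreated, Pgk1 (−0.54, adjusted p = 0.039, although slide 3 gave 0.05) and Ndrg1 (0.18, adjusted p = 0.0299) with retinoic acid in shCTR, and the differences for Aldoc (0.35, adjusted p = 0.0314) and Kdm3a (0.32, adjusted p = 0.0456).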

How the data were processed

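Total RNA (500 ng a sample) of 15 samples was labelled with Cy3 and hybridised to 1-colour Agilent arrays, per the labels. Each deposited scanner file holds spot intensity, to which Feature Extraction 10.7.3.1 had applied background subtraction and detrending without scaling between arrays, per the file headers. The mean spot intensity, the local background intensity and 0 or 1 marks for spot quality were deposited beside it. A table of log2 values was deposited by the authors as well; normexp correction with an offset of 50 and quantile normalization gave it to within a median absolute difference of 3.4e-10, and it served as an alternative.

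After removal of marked spots, copies of a probe were averaged (43020 non-control spots, 39429 probes), and log2 of the processed intensity was taken relative to each array's 75th percentile. A gene was tested where, in 1 group or more, a minimum of 3 arrays had its brightest probe well above background; 117 probes lack an array and needed at least 2 values a group. limma 3.58.1 (R 4.3.3) was fitted once over 4 groups and 15 arrays, two-sided, with Benjamini-Hochberg adjustment over all 25149 genes for each of 5 comparisons; p-values of single probes were adjusted over all probes kept. The fit was tested on simulated data.

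Genes named in full were the 3 largest rises and falls past the threshold in each comparison and isozymes of one step; of related lists, genes past 2-fold were named, except a few that are not reported here. The 36 genes, the related lists and the marker lists were chosen with earlier results of these data known. Promoter sequences and current symbols are from RefSeq, GRCm38.p6; probe coordinates are those of the files (mm9), which give no exon or UTR. Arrays of equal replicate number correlated with r of −0.53 to 0.58 in their deviations from group means, so the numbers were not used to pair samples. Arrays of the same slide correlated with r of 0.12 to 0.61, and slide was an alternative block. The alternatives were other scalings, background correction, filters, probe rules, blocks and samples left out.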

Additional observations from a re-analysis of the deposited data

Results flagged for a closer look

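In groups of 4 arrays, 1 array stood apart from the 3 others for 5 of 106 combinations of gene and group, by a gap to its neighbour past the limit of Dixon's test; chance alone gives about 5% of groups. Hk2 read 4.83 in untreated sh4 replicate 1, against 4.68 to 4.70 on the others. Aldoa read 7.76 in untreated sh4 replicate 2, against 7.55 to 7.59. Gapdh read 6.21 in untreated sh4 replicate 3, against 7.10 to 7.25, on an array that the scanner software rated for evaluation. Pdk1 read 1.23 in untreated shCTR replicate 1, against 1.40 to 1.43. Higd1a read 2.10 in untreated sh4 replicate 1, against 2.80 to 2.85.

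The sh4 effect in retinoic acid minus that in untreated cells, tested in the limma model, differed from 0 for 10 genes. It was 0.68 for Eno2, 0.59 for Hk1, 0.59 for Vegfa, 0.57 for Pdk3 and 0.50 for Car9. It was −0.71 for Slc2a3, −0.64 for Egln3, −0.55 for Pfkl, −0.48 for Ndrg1 and −0.29 for Hk2. All 10 had the same sign on each of the 3 slides with every group. They were called on those same arrays, so this is no separate test. Phf19 itself differed in the same test, by 0.85, and the summed trophectoderm signal was 265 to 324 times the 75th percentile in sh4 with retinoic acid, 292 to 317 in shCTR with retinoic acid, 71.8 to 81.7 in untreated sh4 and 4.66 to 6.19 in untreated shCTR; their part in these differences was not tested.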

How the results depend on the processing

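Under quantile normalization the retinoic acid change turned to 0.33 in sh4 and 0.35 in shCTR for Slc2a1, 0.024 in sh4 for Gpi1, and 0.0012 for Eno1 and 0.010 for Ldha in shCTR. With the authors' deposited values it was 0.34 in sh4 and 0.31 in shCTR for Slc2a1, 0.065 in sh4 for Gpi1 and 0.024 in shCTR for Ldha. For Gapdh the mean over probes gave −0.80 in sh4 and −0.79 in shCTR. No other value that was past the threshold, in the fit as reported or under one of the 26 alternatives at the same threshold, changed sign. Of the 84 values that did not pass, 40 changed sign under at least 1 alternative, among them the retinoic acid values of Slc2a1, Slc16a3, Bnip3l and Gapdh in both hairpins. The authors' values raised the genes higher with retinoic acid in shCTR to 8, with 16 lower. With sh4 in retinoic acid, 1 gene was higher with median centring, with normexp correction, with the compared arrays alone and without the 3 arrays rated for evaluation, and 3 were lower with median centring; normexp gave 5 lower. For the difference between treatments, median centring left 1 lower and 4 higher, and normexp correction and leaving out the 3 arrays left 3 lower each; the authors' values gave 6 higher and 4 lower. Requiring 2-fold left 4 higher and 9 lower with retinoic acid in sh4 and 8 lower in shCTR. It left 0 in each direction for sh4 in both treatments and for the difference. Of all genes tested, 25.6% passed it with retinoic acid in sh4 and 27.8% in shCTR. For sh4 the share was 3.42% in retinoic acid and 6.56% untreated, and for the difference 5.90%.

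Leaving out 1 array gave 6 to 8 higher and 21 to 24 lower with retinoic acid in sh4, 4 to 6 and 22 to 23 in shCTR, 1 to 3 and 5 to 7 with sh4 in retinoic acid, 3 to 3 and 8 to 12 with sh4 untreated, and 5 to 6 and 3 to 5 for the difference. Over all genes, calls for sh4 in retinoic acid went to 3294 with median centring and 3358 with normexp, against 5302. Calls for the difference went to 2964 and 3012, against 5113, and for sh4 untreated to 4624 with normexp, against 7145. The cause was not tested.

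The replicate block kept all 91 calls and brought 3 of the 84 other values past the threshold, among them Egln3 with sh4 in retinoic acid at −0.24 (adjusted p = 0.0365); slide as a block kept the same 91 and added 5. Signal over background limits Mxi1, which was not tested.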
